A study of Oryza sativa with 36 samples.

Results

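The 3 genes described here are OsMADS14 (Os03g0752800, chromosome 3), OsMADS15 (Os07g0108900, chromosome 7) and OsMADS18 (Os07g0605200, chromosome 7), APETALA1-like MADS-box genes of rice, taken by their IDs from a table of 37862 gene IDs. All 3 passed the filter on low counts, which left 26726 genes for testing. Read counts came from poly(A) RNA of whole florets of 2 rice lines. The first is the cultivar IR64, the wild-type control, and the second is OsEPF1-oe (OsEPF1-oeS in the protocol), a transgenic line of IR64 labelled as overexpressing OsEPF1, whose product in rice is a secreted peptide that limits stomatal formation. In each line, developing florets were sampled at 5 stages, numbered 1 to 5, from plants about 75 to 85 days old counted from sowing. Mature florets came from headed plants before anthesis, at about 95 days. Each of the 12 groups holds 3 libraries. A developing replicate mixed RNA of 3 plants, while no source used here gives the pooling of the mature replicates, the promoter of the transgene or the number of independent transformants.

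MADS-box proteins bind DNA as dimers and join into larger complexes, and combinations of floral MADS proteins set the identity of each floral organ. In rice, the APETALA1 and FRUITFULL-like genes are switched on when florigen, such as the Hd3a protein made in leaves, reaches the shoot apex and binds a 14-3-3 protein and the bZIP factor OsFD1. Together with the SEPALLATA-type gene OsMADS34 they help to turn the shoot apex into an inflorescence, and OsMADS14 and OsMADS15 also act later in the floret, where OsMADS15 is needed for a normal palea. The labels place each library in a line and a stage, so the data show how the level of each gene ran through floret development and whether it differed between the lines.

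The libraries held 22372257 to 55476576 counts, and each of the 3 genes had between 1256 and 18614 counts in every library. OsEPF1 (Os04g0637300) checked the labels: its group means were 0.0329 to 2 CPM in IR64 and 1154 to 3326 CPM in OsEPF1-oe. Levels are given in CPM, the counts of a gene scaled to a common library size, here after TMM scaling. The 9 floral organ identity genes that mark the labelled tissue were detected in all 12 groups and summed to 1433 to 4510.4 CPM per library. Of the 36 libraries, 2 stood apart from their groups by more than 2 times the median deviation, IR64 stage 3 replicate 1 and IR64 mature replicate 3. In whole florets, fewer cells of a type and less RNA per cell cannot be told apart. Exon lengths were not used here, so levels are compared between stages and lines but not between genes.

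OsMADS14, which acts in inflorescence and spikelet meristem identity, was highest in mature florets and fell through the developing stages. In IR64 its levels in the 3 libraries were 121, 129 and 131 CPM at stage 1, 116, 120.4 and 126 CPM at stage 2, and 101, 104 and 104 CPM at stage 3. They were 86.1, 92.8 and 82.3 CPM at stage 4, 78.5, 76.9 and 83.2 CPM at stage 5, and 150.2, 158 and 136 CPM in mature florets. The stage 5 libraries all lay below the stage 3 libraries, and the mature libraries all lay above every developing library. No share of all genes is given for these separations, but 68.6% of genes were called from stage 5 to mature florets of IR64. In OsEPF1-oe the levels were 115, 111 and 109 CPM at stage 1, 113, 109 and 110.5 CPM at stage 2, and 96.9, 95.0 and 100.2 CPM at stage 3. They were 80.9, 77.5 and 70.1 CPM at stage 4, 80.1, 69.0 and 76.7 CPM at stage 5, and 138, 164 and 168 CPM in mature florets. The course had the same shape in both lines, with stages 1 and 2 overlapping, stages 4 and 5 overlapping, and stage 3 between these pairs. From stage 1 to stage 5 OsMADS14 fell by 37.3% in IR64 (log2 change -0.67 ± 0.08 SE, adjusted p = 9.1e-09) and by 32.4% in OsEPF1-oe (-0.57 ± 0.08, adjusted p = 2.1e-07), by edgeR's quasi-likelihood test. From stage 5 to mature florets it rose by 86.0% in IR64 (0.90 ± 0.08, adjusted p = 2e-11) and by 108% in OsEPF1-oe (1.06 ± 0.08, adjusted p = 5.7e-13). The place of mature florets above stage 1 in IR64 depends on the scaling of libraries: with the unscaled library size the group means were 116 CPM in mature florets, 140.4 CPM at stage 1 and 77.5 CPM at stage 5.

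OsMADS18, which promotes the transition to flowering, was highest at stage 1 and had the steepest developing decline of the 3 genes. In IR64 its levels were 106, 126 and 126 CPM at stage 1, 93.1, 98.1 and 98.6 CPM at stage 2, and 75.2, 74.3 and 76.5 CPM at stage 3. They were 68.1, 64.2 and 62.6 CPM at stage 4, 59.5, 63.5 and 56.7 CPM at stage 5, and 91.3, 98.6 and 91.0 CPM in mature florets. Stages 1, 2 and 3 each lay wholly above the next, as did 15%, 16.5% and 16.6% of all genes in those steps. Stages 4 and 5 overlapped, and mature florets overlapped only stage 2. In OsEPF1-oe the levels were 118, 115 and 110.2 CPM at stage 1, 100.2, 92.6 and 103 CPM at stage 2, and 76.0, 77.3 and 82.4 CPM at stage 3. They were 72.1, 70.7 and 67.4 CPM at stage 4, 65.8, 58.9 and 64.2 CPM at stage 5, and 71.0, 71.0 and 96.6 CPM in mature florets. Each developing stage lay wholly above the next in this line, as did 11.7%, 18.1%, 15.4% and 9.72% of all genes in the 4 steps, and the mature libraries were uneven, with replicate 3 far above the other two. From stage 1 to stage 5 OsMADS18 fell by 49.8% in IR64 (log2 change -0.99 ± 0.09, adjusted p = 1.2e-10) and by 44.9% in OsEPF1-oe (-0.86 ± 0.09, adjusted p = 2e-09). From stage 5 to mature florets it rose by 56.3% in IR64 (0.64 ± 0.09, adjusted p = 2.8e-07) and by 26.3% in OsEPF1-oe (0.34 ± 0.09, adjusted p = 0.0014). Without OsEPF1-oe mature replicate 3, the rise in OsEPF1-oe was 0.17 and no longer passed the threshold (adjusted p = 0.051). TMM factors were lower in mature florets than at stage 5, so the rise in both lines is smaller with the unscaled library size.

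OsMADS15, which acts in meristem identity and in the palea, ran the other way on the TMM-scaled library size. Its levels were highest at stages 3 to 5 and lowest in mature florets. With the unscaled library size, 21 of the 36 group means of the 3 genes moved by at least their SD. TMM factors were lower in all stage 5 libraries than in all stage 1 libraries, and lower again in all mature ones. The rise of OsMADS15 from stage 1 to 5 is therefore smaller with the unscaled size. There the libraries of stages 1 and 5 overlap in both lines, and the rise was not tested. In IR64 its levels were 256, 274 and 248 CPM at stage 1, 279, 302 and 292 CPM at stage 2, and 312, 318 and 317 CPM at stage 3. They were 301, 311 and 324 CPM at stage 4, 308, 321 and 327 CPM at stage 5, and 254, 200.2 and 241 CPM in mature florets. Stages 3, 4 and 5 overlapped one another and lay above stage 1, and mature florets overlapped stage 1. In OsEPF1-oe the levels were 282, 291 and 294 CPM at stage 1, 307, 302 and 330.3 CPM at stage 2, and 343, 363 and 370.1 CPM at stage 3. They were 324, 361 and 385 CPM at stage 4, 305, 358 and 381 CPM at stage 5, and 228, 207 and 264 CPM in mature florets. In this line the spread grew at stages 4 and 5, where replicate 1 was the lowest each time, and all mature libraries lay below all developing ones. The separations of OsMADS15 libraries in both lines have no share of all genes beside them. From stage 5 to mature florets of OsEPF1-oe, 69.3% of genes were called. From stage 1 to stage 5 OsMADS15 rose by 22.9% in IR64 (log2 change 0.30 ± 0.09, adjusted p = 0.0062) and by 20.5% in OsEPF1-oe (0.27 ± 0.09, adjusted p = 0.013). Without OsEPF1-oe stage 5 replicate 3, the second of these was 0.20 and did not pass (adjusted p = 0.096). From stage 5 to mature florets it fell by 27.3% in IR64 (-0.46 ± 0.09, adjusted p = 6.6e-05) and by 33.0% in OsEPF1-oe (-0.58 ± 0.09, adjusted p = 2.6e-06).

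**Figure D1:**
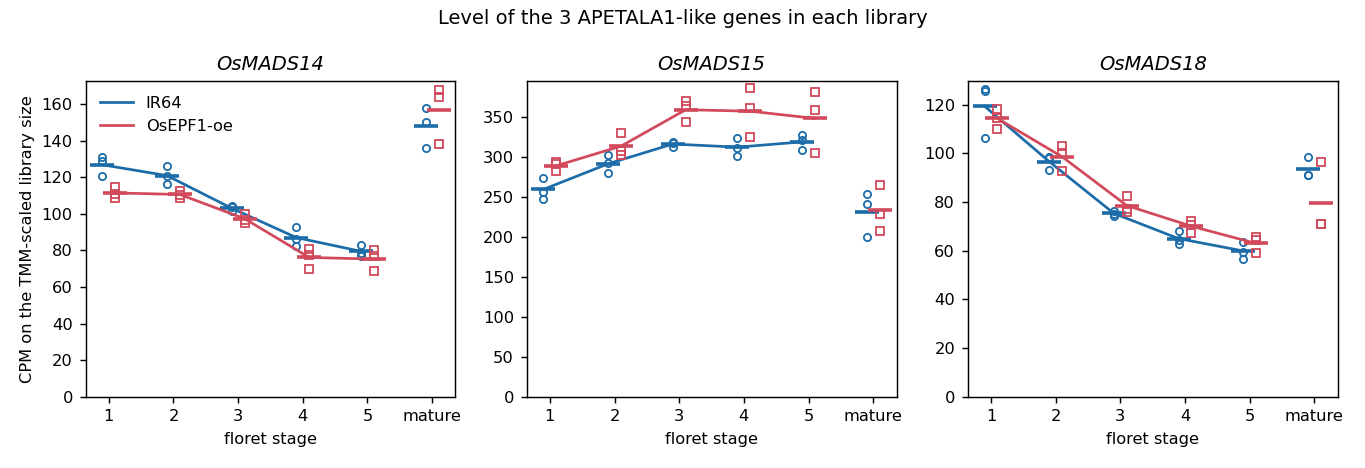
Levels of OsMADS14, OsMADS15 and OsMADS18 in each library, in CPM on the TMM-scaled library size, at stages 1 to 5 and in mature florets of IR64 (circles) and OsEPF1-oe (squares), with 3 libraries per group, horizontal bars for group means and lines joining the developing means. OsMADS14 and OsMADS18 fell over the developing stages and were higher in mature florets than at stage 5, while OsMADS15 rose and was lower in mature florets.

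Changes of this kind were common among all genes. The stage 1 to stage 5 contrast, added after seeing the data, called 60.7% of the tested genes in IR64 and 59.2% in OsEPF1-oe, and the step from stage 5 to mature florets called 68.6% and 69.3%. A fall from stage 1 to 5 followed by a rise to mature florets, called in both lines, was the course of OsMADS14 and OsMADS18 and of 5.57% of all genes. The opposite course, that of OsMADS15, was found for 11.7%.

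The developing change was spread over small steps, few of which passed on their own. In IR64, OsMADS18 fell from stage 1 to 2 (log2 change -0.30 ± 0.09, adjusted p = 0.023), the only member called in that step, where 10.8% of genes were called. Both OsMADS18 (-0.36 ± 0.09, adjusted p = 0.0038) and OsMADS14 (-0.23 ± 0.08, adjusted p = 0.028) fell from stage 2 to 3, against 19.7% of genes. From stage 3 to 4 OsMADS14 fell (-0.24 ± 0.08, adjusted p = 0.026), against 15.2%, and from stage 4 to 5 no member was called, against 10.4%. In OsEPF1-oe, OsMADS18 fell from stage 2 to 3 (-0.33 ± 0.09, adjusted p = 0.0072) and OsMADS14 from stage 3 to 4 (-0.35 ± 0.08, adjusted p = 0.0016), with 22.4% and 12.1% of genes called. No member was called in its steps from stage 1 to 2 or 4 to 5, where 9.06% and 7.73% of genes were. No single developing step of OsMADS15 was called in either line. The IR64 calls were fragile: with 1 library left out at a time, the OsMADS18 step from 1 to 2 was lost in 4 of 6 cases (without stage 1 replicate 2 or 3, or stage 2 replicate 1 or 2), with values of -0.38 to -0.26 over the 6. The OsMADS14 step from 2 to 3 was lost without stage 2 replicate 2 or 3 or any one stage 3 library (-0.26 to -0.20), and its step from 3 to 4 without stage 3 replicate 2 or 3 or stage 4 replicate 3 (-0.29 to -0.20).

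No step differed detectably between the lines. For the 3 genes and 5 steps, the difference of a step between OsEPF1-oe and IR64 ranged from -0.31 to 0.16 on the log2 scale with adjusted p of 0.24 to 1, and 1 of the 15 had an unadjusted p under 0.05. DESeq2 called 0 of the 15 as well. That one was the rise of OsMADS18 to mature florets, smaller in OsEPF1-oe by 0.31 ± 0.13 (95% interval -0.56 to -0.05), which passed without OsEPF1-oe mature replicate 3 (-0.47, adjusted p = 0.016). Over all genes, 0.0112%, 0.0262%, 0.296%, 0.471% and 1.62% were called in the 5 differences, in stage order. The test for any dependence of the line difference on stage gave adjusted p = 0.66 for OsMADS14, 1 for OsMADS15 and 0.58 for OsMADS18, with 2.24% of all genes called, and OsMADS18 passed without OsEPF1-oe mature replicate 3 (adjusted p = 0.032).

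The balance between the 3 genes changed through development. Within a library, the ratio of counts of 2 genes does not depend on library scaling, and since gene length is constant its changes can be read although its absolute value cannot. The log2 count ratio of OsMADS15 to OsMADS14 in IR64 was 1.09, 1.09 and 0.92 at stage 1, 1.62, 1.62 and 1.61 at stage 3, 1.97, 2.06 and 1.97 at stage 5, and 0.76, 0.34 and 0.82 in mature florets. In OsEPF1-oe it was 1.29, 1.39 and 1.44 at stage 1, 1.83, 1.93 and 1.89 at stage 3, 1.93, 2.37 and 2.31 at stage 5, and 0.72, 0.33 and 0.66 in mature florets. The group mean climbed to stage 5 in IR64 and to stage 4 in OsEPF1-oe and was lowest in mature florets, with no overlap between mature and developing libraries. Its changes, pooled over both lines, were 0.18 from stage 1 to 2, 0.36 from stage 2 to 3, 0.29 from stage 3 to 4 and -1.50 from stage 5 to mature florets, each with adjusted p = 0.0075 by the exact permutation test with 6 libraries per stage, two-sided. A raw p of 0.005 is the smallest that the 400 arrangements can give.

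The ratio of OsMADS15 to OsMADS18 moved further over the developing stages. Its group mean on the log2 scale rose from 1.12 ± 0.15 (SD, n = 3) at stage 1 to 2.41 ± 0.10 at stage 5 in IR64 and from 1.34 ± 0.08 to 2.46 ± 0.22 in OsEPF1-oe, and it was 1.30 ± 0.24 and 1.56 ± 0.12 in mature florets. The changes were 0.40 from stage 1 to 2 and 0.50 from stage 2 to 3, both with adjusted p = 0.0075, 0.17 from stage 3 to 4 with adjusted p = 0.027, and -1.01 to mature florets with adjusted p = 0.0075 (exact permutation tests). OsMADS14 and OsMADS18, which both fell, did not fall in step. Their log2 ratio gained 0.22 from stage 1 to 2 and 0.14 from stage 2 to 3 (adjusted p = 0.0075 for both), lost 0.11 from stage 3 to 4 (adjusted p = 0.037) and gained 0.49 to mature florets (adjusted p = 0.0075, exact permutation tests). By line, the change from stage 3 to 4 was -0.03 in IR64 and -0.19 in OsEPF1-oe, and that to mature florets was 0.25 and 0.73. In none of the 3 pairs did the step from stage 4 to 5 pass (adjusted p of 0.17 to 0.47, exact permutation tests). Ratios of other gene pairs were not computed, so these steps have no background share beside them.

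**Figure D2:**
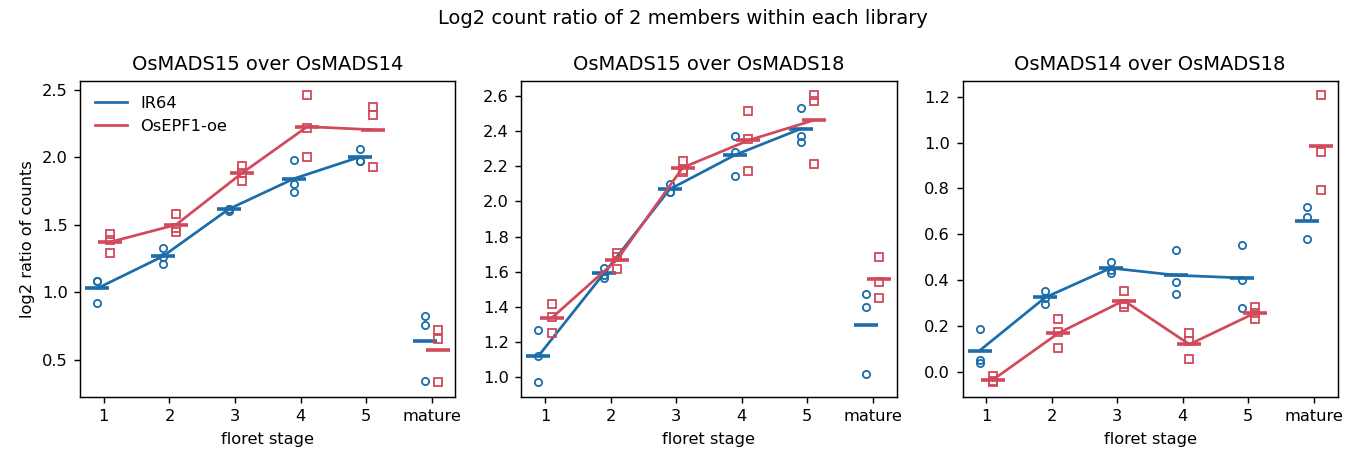
Log2 ratio of the counts of 2 members within each library, at stages 1 to 5 and in mature florets of IR64 (circles) and OsEPF1-oe (squares), with 3 libraries per group, horizontal bars for group means and lines joining the developing means. The ratio of OsMADS15 to OsMADS14 lay higher in all OsEPF1-oe libraries at stages 1 to 4, and that of OsMADS14 to OsMADS18 lay lower at stages 1 to 4 and higher in mature florets.

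Between the lines the differences were small at every stage. In the 18 comparisons of a gene at a stage, edgeR called 0, DESeq2 called 0, and 4 had an unadjusted p under 0.05. The share of all genes called in the developing stages, in order, was 0.834%, 1.18%, 1.69%, 2.38% and 2.45%, and in mature florets it was 2.02%. The log2 changes of OsMADS14 in OsEPF1-oe over IR64 were -0.19, -0.13, -0.08, -0.19 and -0.08 in the order of the developing stages and 0.08 in mature florets, with a standard error of 0.08 each. All OsEPF1-oe libraries lay below all IR64 libraries at stages 1 to 4, a pattern found for 7.88%, 9.27%, 7.25% and 10.7% of all genes at those stages, and the lines overlapped at stage 5 and in mature florets. OsMADS15 changed by 0.16, 0.11, 0.18, 0.19 and 0.13 over the developing stages and by 0.01 in mature florets, with a standard error of 0.09 each. Its OsEPF1-oe libraries all lay above those of IR64 at stages 1, 3 and 4, a pattern found for 6.3%, 6.91% and 12.3% of all genes. A log2 change of one sign at all 5 developing stages was found for 13% of genes below 0, as for OsMADS14, and for 13.1% above 0, as for OsMADS15.

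Averaged over the 6 stages, OsMADS14 and OsMADS15 passed the test in opposite directions. OsMADS14 was lower in OsEPF1-oe by 0.10 ± 0.03 on the log2 scale, a change of -6.56% (95% interval of the log2 change -0.16 to -0.03, adjusted p = 0.038). OsMADS15 was higher by 0.13 ± 0.04, a change of 9.37% (95% interval 0.05 to 0.21, adjusted p = 0.023). OsMADS18 gave -0.005 ± 0.036 (95% interval -0.08 to 0.07, adjusted p = 1). Of all genes, 10.6% were called in this mean, 4.53% higher and 6.06% lower. The OsMADS14 call lies near the threshold. It was lost under upper-quartile scaling, without the filter on low counts and with a replicate block within stage (adjusted p of 0.068, 0.070 and 0.077), and in 18 of the 36 fits that left out 1 library, where the change was -0.11 to -0.08 and the adjusted p 0.016 to 0.072. Those 18 libraries were IR64 stage 1 replicates 2 and 3, stage 2 replicate 3, stage 3 replicates 2 and 3, stage 4 replicate 2, stage 5 replicate 3 and mature replicates 1 and 2, and OsEPF1-oe stage 1 replicates 2 and 3, stage 2 replicates 2 and 3, stage 3 replicates 1 and 2, stage 4 replicate 3, stage 5 replicate 2 and mature replicate 1. The OsMADS15 call was lost without IR64 stage 4 replicate 1 (0.12, adjusted p = 0.066). Without the 2 libraries that stood apart, both calls held (-0.11 with adjusted p = 0.018, and 0.13 with adjusted p = 0.022).

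For OsMADS18 the largest difference between the lines was in mature florets, where OsEPF1-oe was lower by 0.24 ± 0.09 on the log2 scale (95% interval -0.42 to -0.05, unadjusted p = 0.013, adjusted p = 0.18, edgeR). The 3 IR64 libraries lay between 91.0 and 98.6 CPM, and OsEPF1-oe had replicates 1 and 2 at 71.0 CPM each and replicate 3 at 96.6 CPM, inside the IR64 range. Without OsEPF1-oe mature replicate 3 the difference was -0.40 with adjusted p = 0.0041. At stages 1 to 5 the change ran from -0.06 to 0.11 and the lines overlapped every time.

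**Figure D3:**
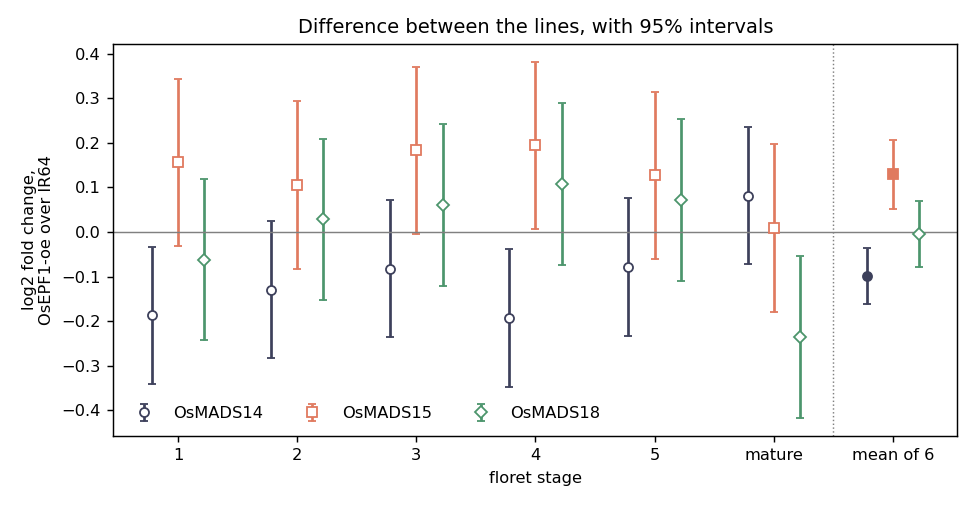
Log2 fold change of each gene in OsEPF1-oe over IR64 at each stage (3 libraries per line and stage) and in the mean of the 6 stages, with 95% confidence intervals, filled where the adjusted p was under 0.05. No single-stage change was called, and in the mean OsMADS14 was lower and OsMADS15 higher in OsEPF1-oe.

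The ratio of OsMADS15 to OsMADS14, which needs no library scaling, was higher in OsEPF1-oe at the developing stages. At stage 1 it was 1.09, 1.09 and 0.92 in IR64 and 1.29, 1.39 and 1.44 in OsEPF1-oe on the log2 scale, and at stage 4 it was 1.80, 1.75 and 1.98 against 2.00, 2.22 and 2.46. All OsEPF1-oe libraries were higher at stages 1 to 4, and the lines overlapped at stage 5 and in mature florets, where the difference of the means was -0.07. This ratio rests on the same counts as the opposite calls of OsMADS14 and OsMADS15 above, so it is not a separate result. Ratios of other gene pairs were not compared between the lines. The line differences of the 3 ratios, here and over the developing stages alone, therefore have no background share beside them. Averaged over the 6 stages, the ratio was 17.0% higher in OsEPF1-oe (log2 difference 0.23, 18 libraries per line, adjusted p = 0.00081 over 3 pairs) by a two-sided permutation test with 100000 resamples within stages. The ratio of OsMADS15 to OsMADS18 was 9.76% higher (0.13, adjusted p = 0.0036, permutation test). Without the libraries of replicate number 2 it was 0.09 and did not pass (adjusted p = 0.097). The ratio of OsMADS14 to OsMADS18 was lower at each developing stage and higher in mature florets, and its mean of -0.09 did not pass (adjusted p = 0.051, permutation test). Without replicate number 2 that mean was -0.12 and passed (adjusted p = 0.032, permutation test).

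Over the developing stages alone, with 15 libraries per line, the 3 ratios differed by 0.29, 0.11 and -0.18 in the same order, with adjusted p of 1.5e-05, 0.012 and 1.5e-05 (permutation tests, where 1e-05 is the smallest raw p that the resamples can give). In mature florets the log2 ratio of OsMADS14 to OsMADS18 was 0.72, 0.68 and 0.58 in IR64 and 0.96, 1.21 and 0.80 in OsEPF1-oe, so that all OsEPF1-oe libraries were above IR64 there, where all had been below at stages 1 to 4.

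Markers of other tissues moved between the lines beside these differences. All 7 photosynthesis markers were detected and 6 were lower in OsEPF1-oe in the mean over stages, and their summed level at stage 4 was 275 to 347 CPM in IR64 and 166 to 202 CPM in OsEPF1-oe. Of 8 tapetum markers (the cell layer that feeds pollen), 4 were lower in the mean and 5 at stage 5, where their sum was 1742 to 3398 CPM in IR64 and 429 to 1174 CPM in OsEPF1-oe. Of 5 meiosis markers, 3 were lower at stage 3 and 2 were higher at stages 4 and 5, with sums at stage 5 of 71.0 to 83.2 CPM in IR64 and 93.1 to 160.3 CPM in OsEPF1-oe. The 3 pollen MIKC* genes summed to at most 3.46 CPM in any developing library and to 180.3 to 320.4 CPM in mature florets, and at stages 3 to 5 of IR64 and stage 5 of OsEPF1-oe 1 of the 3 was at 0 in all libraries. None of these pollen genes was called between the lines. Among all genes, 6.06% were called lower in the mean over stages. At stages 3, 4 and 5, 1.69%, 2.38% and 2.45% were called in either direction. The part of these tissues in the differences of OsMADS14 and OsMADS15 was not tested, as was their part in the stage course. From stage 1 to 5 of IR64 all 7 photosynthesis and 7 of 8 tapetum markers rose, 2 of 3 pollen markers fell, and of 5 meiosis markers 1 rose and 2 fell. From stage 5 to mature florets 7 photosynthesis and 3 pollen markers rose, and 6 tapetum and 3 meiosis markers fell. Of all tested genes, 60.7% and 68.6% were called in these 2 comparisons.

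OsMADS20 (Os12g0501700), the other rice gene of the APETALA1 and FRUITFULL-like group, had a deeper version of the course of OsMADS14 at a far lower count. In IR64 its levels were 1.27, 2.82 and 2.04 CPM at stage 1, 0.15, 0.33 and 0.17 CPM at stage 5, and 5.70, 6.92 and 7.36 CPM in mature florets. In OsEPF1-oe they were 1.28, 1.84 and 2.25 CPM at stage 1, 0.20, 0 and 0.21 CPM at stage 5, and 5.43, 4.52 and 6.67 CPM in mature florets. The mature libraries were above every developing library in each line, a separation given without a share of all genes. OsMADS20 fell from stage 1 to 5 (log2 change -3.20 ± 0.51 in IR64 and -3.58 ± 0.54 in OsEPF1-oe, adjusted p = 3.4e-06 and 1.7e-06) and rose to mature florets (4.91 ± 0.51 and 5.21 ± 0.54, adjusted p = 1.4e-09 and 1.1e-09, edgeR). It was not called between the lines at any stage or in the mean (adjusted p = 0.26). At stage 5 its counts were 0 to 9 per library, so these fold changes are imprecise.

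OsMADS34 (Os03g0753100), the SEPALLATA-type partner in inflorescence identity, directly follows OsMADS14 in the order of protein-coding genes in the RefSeq annotation of assembly ASM3414082v1. Its levels were 18.9, 23.0 and 20.1 CPM at stage 1, 5.95, 8.12 and 8.56 CPM at stage 5 and 11.5, 13.8 and 17.0 CPM in mature florets of IR64. In OsEPF1-oe they were 18.4, 18.5 and 18.1 CPM, 7.36, 7.23 and 6.76 CPM, and 11.3, 17.5 and 16.2 CPM at the same stages. It fell from stage 1 to 5 (log2 change -1.45 ± 0.15 and -1.37 ± 0.15) and rose to mature florets (0.90 ± 0.15 and 1.08 ± 0.15), each with adjusted p of at most 8.1e-06. In the mean between the lines it was -0.18 ± 0.06, which did not pass (adjusted p = 0.066). Like OsMADS14, its OsEPF1-oe libraries all lay below those of IR64 at stages 1, 3 and 4, a pattern found for 7.88%, 7.25% and 10.7% of all genes.

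The other floral MADS genes took several courses. Of 7 SEPALLATA and AGL6 genes, which supply the bridging partners of floral MADS complexes, 6 fell and 1 rose from stage 1 to 5 in IR64, and 4 fell and 1 rose in OsEPF1-oe. The one that rose was OsMADS1 (0.75 ± 0.09 and 0.68 ± 0.09), which directs lemma and palea identity. At the step to mature florets OsMADS7 (1.05 ± 0.10 and 0.88 ± 0.10) and OsMADS8 (1.26 ± 0.09 and 1.11 ± 0.09) rose, while OsMADS5 (-1.90 ± 0.11 and -1.97 ± 0.11) and OsMADS17 (-0.87 ± 0.12 and -0.70 ± 0.11) fell in both lines. The 7 B, C and D class genes, which specify lodicules, stamens, carpels and ovules, all rose to mature florets in both lines, with a median log2 change of 1.75 and 1.68, where the median of all tested genes was 0.02 and 0.04. OsMADS15 fell in the same step in which these 7 genes rose. The 32 tested genes of the flower lists had 26 calls from stage 1 to 5 in IR64 (9 higher, 17 lower) and 22 in OsEPF1-oe (8 higher, 14 lower), and 29 calls in each line at the step to mature florets. Such calls were common: of all tested genes, 60.7% in IR64 and 59.2% in OsEPF1-oe were called from stage 1 to 5. At the step to mature florets the shares were 68.6% and 69.3%.

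**Figure D4:**
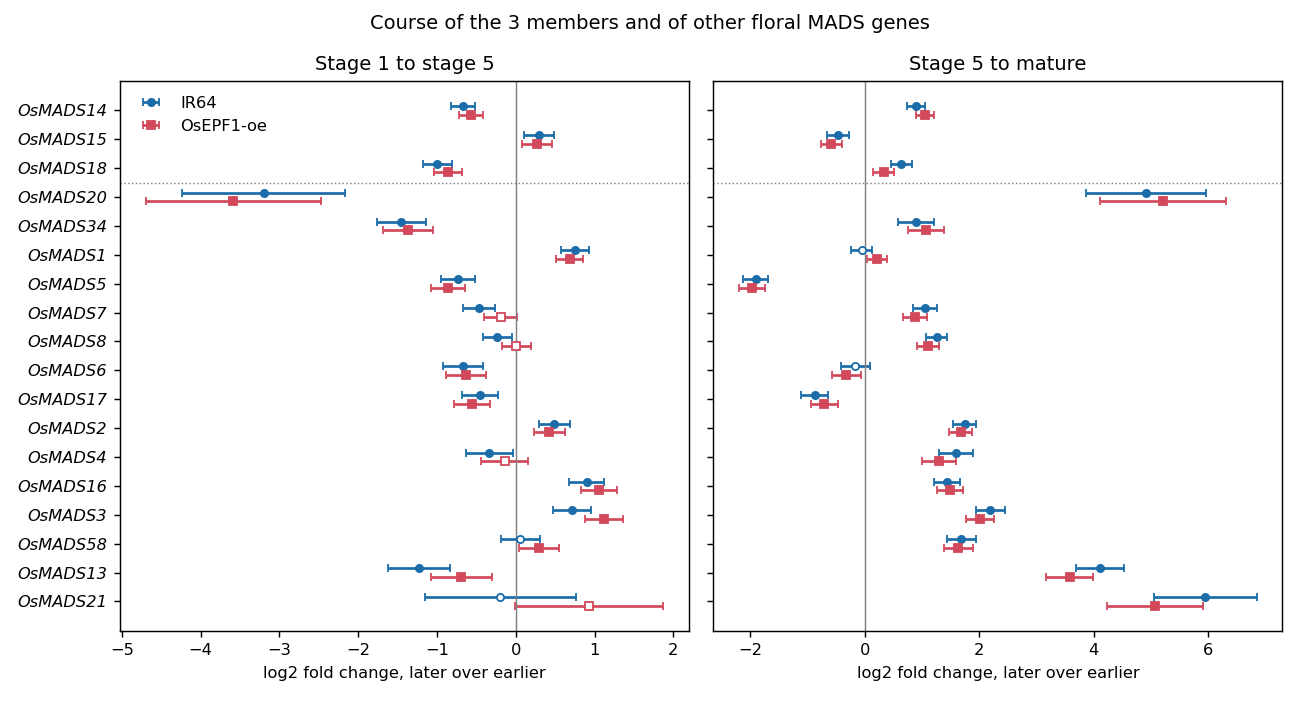
Log2 fold changes from stage 1 to stage 5 (left) and from stage 5 to mature florets (right) in IR64 (circles) and OsEPF1-oe (squares), with 95% confidence intervals, filled where the adjusted p was under 0.05, for the 3 members (above the dotted line) and 15 other floral MADS genes. OsMADS14 and OsMADS18 fell and then rose, as did OsMADS20 and OsMADS34, and OsMADS15 rose and then fell.

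Transcripts of Hd3a were at or near 0 in developing florets and present in mature ones. Hd3a, which encodes the mobile florigen, had 0 counts in all libraries of stages 1 and 2 and at most 3 counts in any library of stages 3 to 5. In mature florets it stood at 24.5, 15.8 and 15.1 CPM in IR64 and at 22.2, 16.9 and 22.6 CPM in OsEPF1-oe. OsFD1, whose ID Os09g0540800 carried no symbol in the annotation used here, fell from stage 1 to 5 (log2 change -1.83 ± 0.44 in IR64 and -2.21 ± 0.45 in OsEPF1-oe, adjusted p = 0.00063 and 0.00011).

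Between the lines, 4 of the 32 other flower genes were called in the mean over stages, a share close to the 10.6% of all genes in that fit. OsMADS5 (0.14 ± 0.04, adjusted p = 0.039) and OsMADS17 (0.21 ± 0.05, adjusted p = 0.0029) were higher in OsEPF1-oe, and the B class gene OsMADS16 (-0.18 ± 0.04, adjusted p = 0.0073) and the C class gene OsMADS58 (-0.20 ± 0.05, adjusted p = 0.0063) were lower. The count was 3 with RLE scaling, 7 with a replicate block, 8 with DESeq2, 8 without the 2 libraries that stood apart and 10 in the 30 developing libraries. Over all genes the calls in these settings were, in the same order, 2783, 2907 and 3594 of 26726, 3623 of 27008 and 4282 of 24759. The share among the flower genes was above that of all genes in each of them except RLE scaling. With 1 library left out it was 3 to 7, and 7 without IR64 mature replicate 3 or OsEPF1-oe stage 4 replicate 1. At single stages the only call was OsMADS55, an SVP-like gene, lower at stage 5 (-1.16 ± 0.28, adjusted p = 0.021). Its levels there were 13.5, 7.5 and 4.26 CPM in IR64 and 4.24, 4.13 and 2.99 CPM in OsEPF1-oe, so IR64 replicate 1 stood far above the rest. No flower gene was called at stage 5 without IR64 replicate 1 or without OsEPF1-oe replicate 2 or 3 of that stage, with the filter of 5 CPM, or in the fit on 6 libraries.

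Across the 12 group means, the genes whose course was most like each member differed. Likeness was Pearson's r of log2 CPM over 12 groups that share libraries and stages, given as a description. OsMADS14 and OsMADS15 ran against each other (r = -0.89), while r was 0.68 for OsMADS14 and OsMADS18 and -0.50 for OsMADS15 and OsMADS18. Among 35 other listed genes, the closest to OsMADS14 were OsMADS22 (r = 0.96), an SVP-like gene, OsMADS20 (0.93) and OsMADS7 (0.93). OsMADS15 was closest to GF14c (0.95), which encodes a 14-3-3 protein that binds florigen, then to SNB (0.69), an AP2-type gene of spikelet meristems, and OsMADS5 (0.67). OsMADS18 was closest to RFL (0.96), the rice LEAFY gene, DL (0.96), a carpel identity gene, and OsMADS34 (0.91). DL fell from a mean of 87.7 CPM at stage 1 to 33.6 CPM at stage 5 of IR64 (log2 change -1.38 ± 0.11, adjusted p = 5.9e-12), and GF14c rose from 195 to 324 CPM (0.74 ± 0.17, adjusted p = 0.00055). Among the 10738 tested genes that averaged 20 CPM or more, the closest IDs were Os03g0299900 for OsMADS14 (r = 0.98), Os07g0671800 for OsMADS15 (0.98) and Os02g0613400 for OsMADS18 (0.99). Os07g0671800 averaged 202, 234, 282, 255 and 258 CPM at stages 1 to 5 of IR64 and 145 CPM in mature florets, and all 3 IDs are given without a name.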

How the data were processed

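The authors deposited raw counts of reads, as whole numbers with no scaling, for 37862 gene IDs in 36 libraries. Per the submitters' processing notes, the tools were Trimmomatic 0.38, HISAT2 2.1.0 and featureCounts of Subread 2.0.0, with build IRGSP-1.0. No source used here gives the strand setting or the treatment of multi-mapped reads, so overlapping antisense transcripts cannot be told apart from a gene, and reads shared by related MADS genes are uncertain.

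The analysis used edgeR 4.0.16 under R 4.3.3. The filterByExpr rule, given the 12 groups, left 26726 genes, TMM factors scaled the libraries, and robust glmQLFit was run on all 36 with 1 mean per group (24 residual degrees of freedom). Calls needed an adjusted p (Benjamini-Hochberg, all tested genes) under 0.05. Comparisons were OsEPF1-oe minus IR64 at each stage, their mean, the interaction, successive steps within each line and their line differences. The contrast of stage 1 with stage 5 was added after seeing the data. The fit was also run on simulated counts that had no stage effect and a single spread for all genes. That run therefore does not test the calls of the members. Log2 changes carry ± SE and levels ± SD. Log2 ratios of 2 members' counts (prior count 0.5) were compared by permutation within stages (100000 resamples, 3 pairs) or exactly within lines (400 arrangements, 15 tests). Replicates are called biological in the labels, and p-values of the fits measure the spread between these libraries, pooled over the 12 groups. The ratio p-values come instead from exchanging the labels of libraries within stages or lines.

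The members and lists were chosen with earlier results of these data known. The table does not pair IDs with names: 69 ID and symbol pairs came from general knowledge. The RefSeq table (assembly ASM3414082v1) matched 1 of the IDs directly. By symbol and rank along the chromosome (within 0.02), 40 pairs lay in the same place, the 3 members among them, 3 did not and were dropped, and 26 had no symbol there, so that these values belong to the IDs. Named were the members, OsMADS20, OsMADS34, OsEPF1, and from the lists the called genes of each genotype comparison (all if 5 or fewer, otherwise the 3 largest), which is followed here for the flower lists, with marker lists given as counts. Also named were the 3 listed genes and the 1 ID most like each member over the 12 group means (log2 CPM with a prior count of 2). OsMADS1, OsMADS7, OsMADS8, Hd3a and OsFD1 were chosen after their values were seen. A planned comparison of levels per length was not made, since transcript lengths were not used here. Alternatives were RLE and upper-quartile scaling, no filter, at least 5 CPM in 3 libraries, DESeq2 1.42.0, a replicate block, fits on 6 libraries or on the 30 developing libraries, a prior count of 5, and leaving out each library. The replicate numbers do not pair the libraries: deviations of same-numbered libraries correlated at -0.39 to 0.25, and 7 of 18 pairs were over 0.1.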

Additional observations from a re-analysis of the deposited data

Results flagged for a closer look

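The line difference in the log2 ratio of OsMADS14 to OsMADS18 differed between developing and mature florets. Averaged over stages 1 to 5 it was -0.18, with all OsEPF1-oe libraries below IR64 at stages 1 to 4, and in mature florets it was 0.33, with all above. The developing mean minus the mature value was -0.51, with adjusted p = 3e-05 over 3 pairs by a permutation test that exchanged the lines within each stage. This comparison was chosen after seeing the data, and the permutation assumes no line difference at any stage, so a low p does not by itself show a change between stages. The same difference was 0.36 for OsMADS15 over OsMADS14 (adjusted p = 0.085, permutation test) and -0.15 for OsMADS15 over OsMADS18 (adjusted p = 0.57, permutation test).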

How the results depend on the processing

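The 75 values from the edgeR fits were recomputed under the other settings, each for the values it covers. This gave 540 values, of which 519 kept direction and side of the threshold. Leaving out each of the 36 libraries in turn gave 720 values, of which 656 did. The cause of the changes below was not tested, except that a fit on 6 libraries has fewer samples. Under RLE scaling, the OsMADS14 step from stage 3 to 4 in IR64 was -0.204 (adjusted p = 0.064), and values close to 0 changed sign: OsMADS15 between the lines in mature florets (-0.0102) and its step from 3 to 4 in IR64 (0.0228) and OsEPF1-oe (0.0331). DESeq2 gave -0.0102, 0.0228 and 0.0331 for the same values, and called the OsMADS14 step from 2 to 3 in OsEPF1-oe (-0.189, adjusted p = 0.033). With at least 5 CPM in 3 libraries that step was also called (-0.190, adjusted p = 0.040), and OsMADS15 in mature florets (-0.0103), OsMADS14 from stage 1 to 2 in OsEPF1-oe (0.00612) and the line difference of OsMADS18 from 2 to 3 (-0.00409) changed sign. In the mean over stages, OsMADS14 was -0.0868 under upper-quartile scaling and -0.0974 without a filter, neither called. OsMADS18 was 0.00659 under upper-quartile scaling and 0.0462 in the 30 developing libraries. Fits on the 6 libraries compared lost OsMADS14 in IR64 from 2 to 3 (-0.245) and 3 to 4 (-0.2495), OsMADS18 in OsEPF1-oe to mature florets (0.325) and OsMADS15 in OsEPF1-oe from 1 to 5 (0.238). The ratio of OsMADS14 to OsMADS18 between the lines was called over stages 1 to 5 (-0.176).

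With a replicate block, which the numbers do not justify as a pairing, the mean of OsMADS14 was -0.0977 (adjusted p = 0.047), and with a replicate block within each stage it was -0.0986 (adjusted p = 0.077). OsMADS15 stayed called under both (0.127 and 0.128).

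With 1 library left out at a time, the mean over stages ranged from -0.112 to -0.0840 for OsMADS14, from 0.113 to 0.144 for OsMADS15 and from -0.0317 to 0.00811 for OsMADS18. In IR64, OsMADS18 from stage 1 to 2 ranged from -0.382 to -0.263, OsMADS14 from 2 to 3 from -0.257 to -0.201 and from 3 to 4 from -0.292 to -0.205, and OsMADS15 from 4 to 5 from -0.0287 to 0.0576. In OsEPF1-oe, OsMADS14 ranged from -0.0292 to 0.0118 from stage 1 to 2 and from -0.0736 to 0.0412 from 4 to 5. OsMADS15 ranged there from 0.198 to 0.356 from stage 1 to 5, from -0.0659 to 0.0571 from 3 to 4 and from -0.108 to 0.0495 from 4 to 5, and OsMADS18 from 0.172 to 0.411 from 5 to mature. The line difference of a step ranged for OsMADS18 from -0.0114 to 0.0641 (2 to 3), -0.0744 to 0.00896 (4 to 5) and -0.470 to -0.232 (5 to mature), and for OsMADS15 from -0.0480 to 0.0749 (3 to 4) and -0.137 to 0.0196 (4 to 5). Between the lines, OsMADS18 ranged from -0.00375 to 0.0718 at stage 2 and from -0.398 to -0.159 in mature florets, and OsMADS15 from -0.0899 to 0.0887 in mature florets. The adjusted p of the OsMADS18 interaction was 0.0319 to 0.922.

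For ratios without a replicate number, OsMADS15 over OsMADS18 between the lines was 0.0936 to 0.184, OsMADS14 over OsMADS18 was -0.117 to -0.0626, and the developing minus mature difference of OsMADS15 over OsMADS14 was 0.253 to 0.441. Ratio steps cannot pass with so few libraries, since the smallest p is then 0.056. Their ranges for OsMADS15 over OsMADS14 were 0.164 to 0.192, 0.359 to 0.372, 0.193 to 0.340, -0.0138 to 0.140 and -1.64 to -1.31 in stage order. For OsMADS15 over OsMADS18 they were 0.385 to 0.431, 0.493 to 0.507, 0.0957 to 0.242 and, to mature florets, -1.15 to -0.917, and for OsMADS14 over OsMADS18 they were 0.193 to 0.240, 0.131 to 0.141, -0.139 to -0.0975 and 0.391 to 0.594.

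Counts over all genes also moved with the tool and the libraries fitted. Between the lines edgeR called 223, 315, 453 and 635 genes at stages 1 to 4 and 541 in mature florets, and DESeq2 called 378, 551, 726, 1096 and 967. Fits on 6 libraries called 144 at stage 1, 56 at stage 3, 396 at stage 4, 99 against 654 at stage 5, and 8 in mature florets. They also called 2628 against 4074 from stage 3 to 4 in IR64 and 1122 against 2066 from 4 to 5 in OsEPF1-oe. The line differences of the 5 steps gave 3, 7, 79, 126 and 434 calls, and 32, 51, 180, 245 and 847 by DESeq2. With 1 library left out, the calls between the lines were 119 to 203, 159 to 239, 213 to 449, 286 to 795 and 265 to 972 at stages 1 to 5 and 274 to 792 in mature florets, and those of the line difference to mature florets 156 to 850. The mean over stages gave 2830 calls, and 4282 in the developing libraries, and the interaction 599, with 1504 by DESeq2 and 388 in the developing libraries. Upper-quartile scaling moved the median change of all genes to mature florets by -0.164 in IR64 and -0.112 in OsEPF1-oe.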
